A study of Mus musculus with 6 samples.

Results

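The genes described here are 10 mouse genes of bacterial sensing and of the inflammasome. They are the Toll-like receptors Tlr2, Tlr4 and Tlr5, their adaptor Myd88, the cytosolic sensors Nod1 and Nod2 with their kinase Ripk2, the inflammasome sensor Nlrp6, the inflammasome adaptor Pycard and the cytokine Il18. They were chosen by name, without a threshold on any measured value, from a table of 55414 genes. All 10 had at least 1 count, and 7 passed the filter on low counts.

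Toll-like receptors bind microbial molecules at the cell surface or in endosomes and pass the signal through Myd88, whereas Nod1 and Nod2 detect fragments of bacterial peptidoglycan in the cytosol and recruit Ripk2. Both routes end in the activation of NF-kB, the transcription factor that also carries much of the response to tumor necrosis factor (TNF). Inflammasome sensors such as Nlrp6 assemble with Pycard (ASC) and a caspase, which then matures cytokines such as IL-18. Nlrp6 is known as a sensor of intestinal epithelium, and Nod2 is known for its role in Paneth cells, the granule-rich secretory cells of the intestinal crypt that release antimicrobial peptides.

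RNA-seq was performed on Paneth cells isolated by FACS from small intestines of wild-type C57BL/6J mice. The group St_TNF was fed standard chow and the group ZincDef_TNF was fed zinc depleted chow, in both cases for 7 weeks, and both groups received TNF 3 hours before the intestine was taken. The libraries of each group are numbered 1 to 3 and are called St 1 to St 3 and Zn 1 to Zn 3 below, whereas the series' design text gives 4 replicates a group. The study describes its sorted samples as coming from individual mice, but their age and the TNF dose were not found in the labels or methods. No library without TNF was used here, so the values describe the effect of diet on top of TNF and not the response to TNF. Crypts were purified before the sort, and the RNA of all sorted cells of a sample was measured together, so fewer cells of a type and less RNA per cell cannot be told apart.

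The libraries held 6139397 to 12772373 counts. Levels are given as normalised CPM, which are counts divided by a library size that was corrected by the trimmed mean of M-values (TMM). The TMM factors were wide, at 1.51 to 1.73 in St 1 and St 2, 0.90 in St 3, 1.46 in Zn 1, 0.64 in Zn 2 and 0.46 in Zn 3. All 9 Paneth markers had counts, and together they took 50.3% to 54.1% of the counts in St 1, St 2 and Zn 1 and 60.1% to 62.5% in St 3, Zn 2 and Zn 3. In normalised CPM, St 1 and St 2 stood apart from the other 4 libraries in the summed level of 11 NF-kB targets (Nfkbia, Tnfaip3, Nfkb1, Nfkb2, Relb, Birc3, Icam1, Cxcl1, Cxcl2, Ccl20 and Tnf), a list chosen after the values were seen. This sum was 62.3 normalised CPM in St 1 and 170.2 in St 2, and it was 470 in St 3, 645 in Zn 1, 409 in Zn 2 and 429 in Zn 3. As a share of counts, the sum was 0.0107% in St 1, 0.0256% in St 2 and 0.0421% in St 3. In Zn 1 to Zn 3 this share was 0.0938%, 0.0261% and 0.0197%, so St 2 did not stand apart on that scale. Nfkb2 and Relb were also higher in St 2 than in Zn 2 and Zn 3 in normalised CPM. Because of the split in normalised CPM, the diet comparison of each tested gene of the list is also given without St 1 and St 2, where the single remaining St_TNF library is assumed to vary like the others.

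The promoters of Nlrp6 and Tlr2 are shown because these were the 2 genes of the list whose levels ran most strongly against each other across the 6 libraries. The sequences are from RefSeq on GRCm38.p6 and run from 250 bases before to 50 bases after the gene start, at chr7:140920652-140920951 on the + strand for Nlrp6 and at chr3:83841559-83841858 on the - strand for Tlr2. Capitals mark the letters GGGNNNNTCC, a simplified NF-kB motif, on either strand (GGANNNNCCC when read on the other strand).
Nlrp6: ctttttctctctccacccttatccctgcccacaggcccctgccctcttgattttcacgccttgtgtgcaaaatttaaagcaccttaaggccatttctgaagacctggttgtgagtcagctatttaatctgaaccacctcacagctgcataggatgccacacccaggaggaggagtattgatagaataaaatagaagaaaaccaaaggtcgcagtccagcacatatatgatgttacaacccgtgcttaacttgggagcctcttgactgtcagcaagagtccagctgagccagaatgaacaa
Tlr2: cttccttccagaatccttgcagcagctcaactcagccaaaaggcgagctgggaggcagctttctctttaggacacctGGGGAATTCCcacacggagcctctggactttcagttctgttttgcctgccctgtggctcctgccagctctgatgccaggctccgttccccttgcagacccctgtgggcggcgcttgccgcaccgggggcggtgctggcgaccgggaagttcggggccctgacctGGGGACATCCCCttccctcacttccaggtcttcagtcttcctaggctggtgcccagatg
The motif was found 3 times in the Tlr2 window, starting 173, 9 and 7 bases before the gene start, and the last 2 matches overlap on opposite strands. It was not found in the Nlrp6 window, nor in the windows of Nod1, Nod2, Myd88, Tlr5, Pycard and Il18. Of all 32851 mouse promoters in the same table, 6296 (19.2%) held at least 1 match. These matches describe letters in a window and do not show binding. The promoters of Ripk2 and Tlr4 were not analysed here.

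The first question was which of these genes Paneth cells expressed. To compare genes with each other, counts were divided by the length of the canonical transcript and brought to a common sum per library, which gives a length-scaled level in TPM. On this scale, Pycard, Myd88, Tlr2 and Nlrp6 formed an upper set and Ripk2 came next, and the other 5 genes were low. The mean level over the 6 libraries was 5.60 TPM for Pycard (range 1.31 to 12.3), 5.02 TPM for Myd88 (1.97 to 12.2), 4.91 TPM for Tlr2 (0.402 to 13.0) and 3.28 TPM for Nlrp6 (0.0906 to 13.0). Ripk2 followed with a mean of 1.17 TPM (0.173 to 3.45). Means of 0.287 TPM for Nod1, 0.228 TPM for Nod2, 0.208 TPM for Il18, 0.191 TPM for Tlr5 and 0.0443 TPM for Tlr4 closed the order. The ranges of the upper 5 genes overlapped, so their order among each other is not settled by these libraries. Pglyrp1, a secreted peptidoglycan recognition protein with bactericidal activity, was far above all of them with a mean of 479 TPM.

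**Figure D1:**
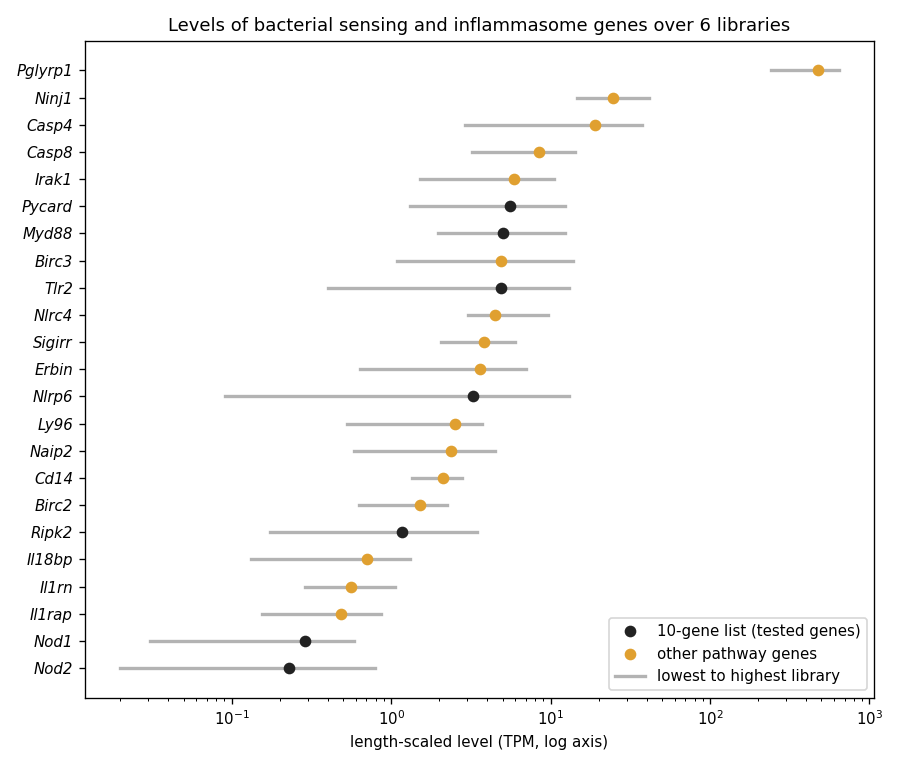
Length-scaled levels (TPM, log axis) of the 7 tested genes of the 10-gene list and of 16 other genes of the same pathways, with the mean over 6 libraries as a point and the lowest and highest library as the ends of the line. Pglyrp1 lies far to the right at a mean of 479 TPM, Nod1 and Nod2 lie at the bottom below 1 TPM in each library, and the line of Nlrp6, from 0.0906 to 13.0 TPM, is among the longest.

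The 5 better measured genes differed in how far they varied between libraries. The highest normalised CPM exceeded the lowest by 38.2-fold for Tlr2, 31.8-fold for Nlrp6 and 24.0-fold for Ripk2, and by 9.73-fold for Pycard and 4.80-fold for Myd88. The lowest libraries held 13 counts for Tlr2, 9 for Nlrp6 and 5 for Ripk2, so the first 3 ratios are imprecise. For Nod1 and Nod2, the lowest libraries held 3 counts and 1 count, too few for such a ratio. In the test described next, the biological coefficient of variation over all genes was 44.0%.

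The second question was how zinc depletion changed these genes. In edgeR's quasi-likelihood test with Benjamini-Hochberg adjustment, 0 of 9749 genes differed between the diets at an adjusted p under 0.05 (0% of the genes tested), so no gene of the list did. At an unadjusted p under 0.05, 393 genes were lower (4.03%) and 252 were higher (2.58%) in ZincDef_TNF. Of the 7 genes of the list that were tested, 4 had a higher and 3 a lower fitted level in ZincDef_TNF, with a median log2 fold change of 0.38 beside 0.00 over all tested genes, and 1, Nlrp6, had an unadjusted p under 0.05. Nlrp6 was also the 1 gene of the 7 whose normalised CPM did not overlap between the diets. Over all tested genes, 6.58% were lower without overlap and 3.51% were higher without overlap in ZincDef_TNF.

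**Figure D2:**
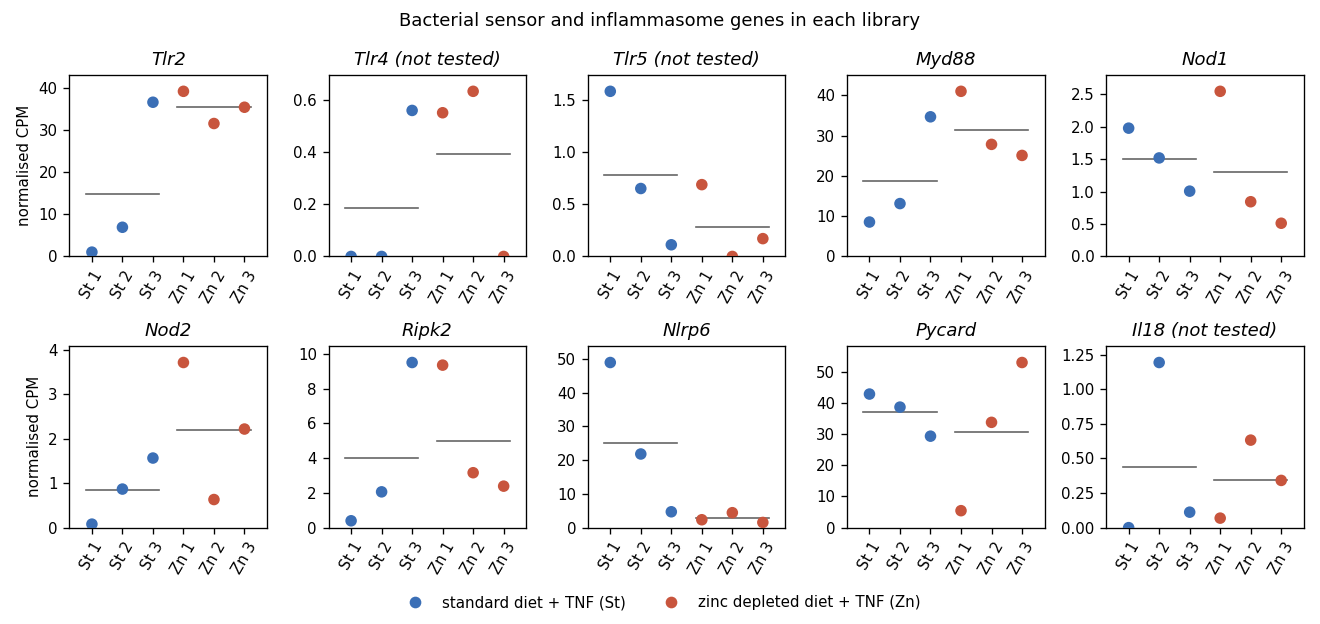
Normalised CPM of the 10 genes in each library, with 1 panel per gene, blue points for the standard diet, red points for the zinc depleted diet and a line at each group mean. Nlrp6 was high in St 1 and St 2 and low in the other 4 libraries, Tlr2 showed the opposite, and Tlr4, Tlr5 and Il18 had too few counts to be tested.

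Nlrp6 (ENSMUSG00000038745) lies at chr7:140500815-140509105 on the + strand of GRCm39, and its canonical transcript has 8 exons and 4436 bases. It had 618 counts in St 1, 201 in St 2 and 42 in St 3, against 34 in Zn 1, 21 in Zn 2 and 9 in Zn 3. In normalised CPM these were 48.9, 21.8 and 4.70 in St_TNF and 2.34, 4.43 and 1.54 in ZincDef_TNF. St 1 and St 2 were high, and St 3 was close to the zinc depleted libraries, only just above the highest of them. Mean levels were 25.1 ± 22.3 normalised CPM in St_TNF and 2.77 ± 1.49 in ZincDef_TNF (SD, n = 3 each). The fitted log2 fold change was -3.21 (SE 0.75), a 9.27-fold lower level in ZincDef_TNF, with an unadjusted p of 0.00129 and an adjusted p of 0.681 in edgeR. Nlrp6 ranked 7 of 9749 genes both by p and by the size of the fold change.

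The call of Nlrp6 depended on the test. DESeq2 gave a log2 fold change of -3.19 with an adjusted p of 0.0137, and Nlrp6 was then 1 of 6 genes called, all lower in ZincDef_TNF (0.0338% of 17776 genes). The other 5 were Vdr, Nrn1, Bambi, Tent5c and Dmbt1. EdgeR without the filter on low counts gave -3.23 with an adjusted p of 4.35e-07, in a fit where 0.326% of genes were called lower. The SE in that fit was 0.453 for Tlr2, 0.452 for Nlrc4 and 0.456 for Casp4, against 0.857, 0.413 and 0.784 with the filter. The spread was thus set nearly alike for these genes, and that adjusted p took little account of the spread of Nlrp6 itself. EdgeR without St 3 gave -3.66 with an adjusted p of 0.0333, and 0.0788% of genes were called lower in that fit. With total counts as the only scaling, the value was -4.13 with an adjusted p of 0.683 in edgeR, in a fit where the median of all genes was -0.67. The value was -2.28 without St 1, and without both St 1 and St 2 it was -0.78 with an adjusted p of 1.00 in edgeR. Over the 14 other fits, the adjusted p ranged from 4.35e-07 to 1.00, and the sign was negative in each of them. Most of the size of the difference thus came from St 1 and St 2.

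Markers of other cell types were set beside the level of Nlrp6 in each library. The summed level of the 7 goblet markers, all with counts, was 5087 to 8986 normalised CPM in St_TNF and 8762 to 12786 in ZincDef_TNF. Spink4 gave the largest part, and Spink4, Tff3 and Agr2 were lowest in St 1 and St 2. In contrast, Muc2, Clca1 and Fcgbp were higher in St 1, St 2 and Zn 1 than in St 3, Zn 2 and Zn 3. Fcgbp stood at 149, 312 and 36.1 in St_TNF and at 189, 27.8 and 19.3 in ZincDef_TNF, and Zg16 was mixed. For the 9 enterocyte markers, all with counts, the summed level was 112 to 247 in St_TNF and 94.7 to 156 in ZincDef_TNF, and for the 5 stem cell markers, all with counts, it was 1009 to 2242 in St_TNF and 500 to 1226 in ZincDef_TNF. The 6 tuft markers, all with counts, summed to 26.2 to 461 in St_TNF and to 57.5 to 123 in ZincDef_TNF. The 7 enteroendocrine markers, all with counts, summed to 14.9 to 37.9 in St_TNF and to 4.95 to 34.0 in ZincDef_TNF. Each of these sums overlapped between the diets. Most of the stem cell sum came from Olfm4, at 1957, 831 and 1250 in St 1 to St 3 and 338, 655 and 1113 in Zn 1 to Zn 3. The stem cell receptor Lgr5, in contrast, was at 19.7, 10.7 and 3.58 in St_TNF and at 4.40, 5.48 and 0.512 in ZincDef_TNF, and the stem cell factor Ascl2 at 8.78, 6.51 and 1.12 against 0.275, 1.48 and 0. Both were thus high in St 1 and St 2 and low in the other 4 libraries, as Nlrp6 was, whereas Smoc2 stood at 53.4 to 85.2 against 45.4 to 77.2 and Slc12a2 at 86.2 to 170.5 against 61.8 to 112. The highest stem cell sum was in St 1, the library with the highest Nlrp6, and the highest enterocyte and tuft sums were in St 2. The part of these markers in the Nlrp6 values, Apob, Lgr5 and Ascl2 included, and that of the Paneth marker share and of the NF-kB target sum given above, was not tested.

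As a sensor in the same role, Nlrc4, which together with the Naip proteins detects flagellin and parts of bacterial secretion systems, was compared with Nlrp6 within each library. Per transcript length, Nlrp6 stood at 3.66 times the level of Nlrc4 in St 1 and 1.44 times in St 2, but at 0.158 times in St 3. In the zinc depleted libraries the ratio was 0.0545 in Zn 1, 0.112 in Zn 2 and 0.0299 in Zn 3. Nlrp6 was thus the more abundant of the 2 transcripts in St 1 and St 2, and Nlrc4 was in the other 4 libraries. Such a ratio within a library does not depend on the scaling of the library. The length-scaled level of Nlrc4 was 3.03 to 3.64 TPM in 5 libraries and 9.64 TPM in Zn 1.

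**Figure D3:**
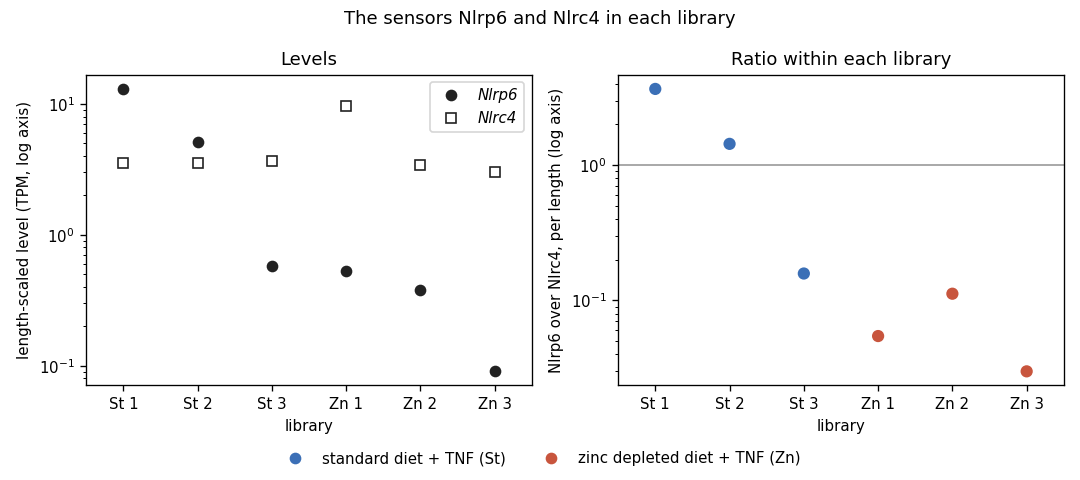
Length-scaled levels (TPM, log axis) of the inflammasome sensors Nlrp6 and Nlrc4 in each library on the left, and their ratio within each library (log axis) on the right, with blue points for the standard diet and red points for the zinc depleted diet. The ratio lies above 1 in St 1 and St 2 and at 0.0299 to 0.158 in the other 4 libraries.

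The genes whose levels across the 6 libraries were most like those of Nlrp6 were Plcb3, Nop53, Vars2, Pm20d1 and Mthfd1. Their Pearson correlations of log2 CPM with Nlrp6 were 0.991, 0.989, 0.987, 0.985 and 0.983 among 8423 genes compared, given as a description over 6 libraries that share depth and composition. Plcb3, a phospholipase of G protein signalling, stood at 53.0, 37.2 and 19.1 normalised CPM in St 1 to St 3 and at 15.0, 15.6 and 11.8 in Zn 1 to Zn 3. Mthfd1, an enzyme of folate metabolism, stood at 26.7, 17.0 and 10.1 in St_TNF and at 6.67, 7.38 and 4.27 in ZincDef_TNF. Both shared the order of Nlrp6, with St 1 highest, St 2 next and St 3 above the zinc depleted libraries, on a narrower range. None of the 5 had an adjusted p under 0.05 in edgeR or DESeq2.

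Tlr2 (ENSMUSG00000027995; chr3:83743576-83749074, - strand, 3 exons), whose promoter held the 3 motif matches shown above, encodes the receptor for bacterial lipoproteins. It had 13 counts in St 1, 64 in St 2 and 328 in St 3, against 571, 150 and 208 in Zn 1 to Zn 3. In normalised CPM these were 1.03, 6.94 and 36.7 in St_TNF and 39.3, 31.6 and 35.5 in ZincDef_TNF. On this scale, St 1 and St 2 were low, and St 3 lay within the narrow range of the zinc depleted libraries. Scaled by total counts, Tlr2 was at 1.77, 10.4 and 32.9 CPM in St_TNF and at 57.1, 20.2 and 16.3 in ZincDef_TNF. St 1 and St 2 were lowest there too, but the zinc depleted libraries were not in a narrow range. The means were 14.9 ± 19.1 normalised CPM in St_TNF and 35.5 ± 3.83 in ZincDef_TNF (SD, n = 3 each), so nearly all of the spread in normalised CPM was in the standard diet. The log2 fold change was 1.26 (SE 0.86) with an adjusted p of 0.707 in edgeR. It was 3.23 without St 3, with an adjusted p of 0.103 in edgeR, and -0.05 without St 1 and St 2. The Pearson correlation of log2 CPM between Tlr2 and Nlrp6 over the 6 libraries was -0.940, given as a description.

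Myd88 (ENSMUSG00000032508; chr9:119165000-119170486, - strand, 6 exons), the adaptor of most Toll-like receptors and of the IL-1 receptor family, was likewise lowest in St 1 and next lowest in St 2 in normalised CPM, on a narrower range. It stood at 8.54, 13.1 and 34.7 normalised CPM in St 1 to St 3 and at 41.0, 27.8 and 25.1 in Zn 1 to Zn 3, and the groups overlapped through St 3. The means were 18.8 ± 14.0 and 31.3 ± 8.51 (SD, n = 3 each), with a log2 fold change of 0.74 (SE 0.51) and an adjusted p of 0.707 in edgeR. This value was 1.59 without St 3 and -0.15 without St 1 and St 2. Scaled by total counts, Myd88 was at 14.7, 19.7 and 31.1 CPM in St_TNF and at 59.6, 17.8 and 11.5 in ZincDef_TNF. Zn 3 was the lowest on that scale, and St 2 was above Zn 2. Exons of Myd88 share 628 bases with Acaa1a on the opposite strand, and since the use of strand in counting is not known, part of its 1414 counts may belong to Acaa1a, which had 1177 counts. Per transcript length, the ratio of Tlr2 to Myd88 was 0.133 in St 1, 0.585 in St 2 and 1.17 in St 3, and it was 1.06 to 1.57 in ZincDef_TNF.

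Tlr4, which senses lipopolysaccharide, and Tlr5, which senses flagellin, did not pass the filter on low counts. Tlr4 had 0, 0 and 5 counts in St 1 to St 3 and 8, 3 and 0 in Zn 1 to Zn 3. Tlr5 had 20, 6 and 1 counts in St_TNF and 10, 0 and 1 in ZincDef_TNF. With 0 counts, a level of up to 3 counts is allowed, equal to 0.206 to 0.632 normalised CPM across libraries. Tlr4 exceeded 3 counts in St 3 and Zn 1, and Tlr5 did so in St 1, St 2 and Zn 1, but a difference between the diets was not detectable at this depth for either. Among co-receptors of Tlr4, Cd14 stood at 3.88, 2.28 and 8.05 normalised CPM in St_TNF and 4.61, 7.17 and 8.53 in ZincDef_TNF, and Ly96 (MD-2) at 1.03, 2.17 and 4.36 against 2.82, 6.11 and 1.54.

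Nod1 (ENSMUSG00000038058; chr6:54900927-54949647, - strand, 12 exons) and Nod2 (ENSMUSG00000055994; chr8:89373943-89415102, + strand, 13 exons) were low in all libraries. Nod1 had 25, 14 and 9 counts in St_TNF and 37, 4 and 3 in ZincDef_TNF, which is 1.50 ± 0.486 against 1.30 ± 1.09 normalised CPM (SD, n = 3 each). Its log2 fold change was -0.11 (SE 0.71), with an adjusted p of 0.966 in edgeR, and it became 0.43 without St 1 and St 2 and -1.14 without Zn 1. Nod2 had 1, 8 and 14 counts in St_TNF and 54, 3 and 13 in ZincDef_TNF, which is 0.838 ± 0.744 against 2.19 ± 1.54 normalised CPM (SD, n = 3 each). The Zn 1 library held most of the Nod2 counts and the highest Nod1 count, and both genes overlapped between the diets. The log2 fold change of Nod2 was 1.48 (SE 0.90) with an adjusted p of 0.684 in edgeR, and 0.53 without St 1 and St 2.

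Ripk2 (ENSMUSG00000041135; chr4:16121400-16163796, - strand, 11 exons), the kinase that carries the signal of Nod1 and Nod2, had 5, 19 and 85 counts in St_TNF and 136, 15 and 14 in ZincDef_TNF. In normalised CPM these were 0.396, 2.06 and 9.51 against 9.36, 3.16 and 2.39. St 3 and Zn 1 were about equal and well above the other 4 libraries, and the groups overlapped. The log2 fold change was 0.38 (SE 0.88), with an adjusted p of 0.904 in edgeR. It was 2.14 without St 3, -0.50 without Zn 1 and -0.90 without St 1 and St 2, so its direction was set by single libraries.

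Pycard (ENSMUSG00000030793; chr7:127588558-127593039, - strand, 3 exons), the adaptor that joins inflammasome sensors to caspases, was evenly expressed in St_TNF and spread in ZincDef_TNF. It stood at 42.8, 38.6 and 29.3 normalised CPM in St 1 to St 3 and at 5.44, 33.7 and 52.9 in Zn 1 to Zn 3. Zn 1 was the lowest and Zn 3 the highest of all 6 libraries. The means were 36.9 ± 6.91 and 30.7 ± 23.9 (SD, n = 3 each), with a log2 fold change of -0.27 (SE 0.63) and an adjusted p of 0.902 in edgeR, and it was 0.25 without Zn 1 and 0.05 without St 1 and St 2. Pycard shares 485 exon bases with Gm45205 on the opposite strand, which had 9 counts. Scaled by total counts only, Pycard was at 26.3 to 73.7 CPM in St_TNF and at 7.91 to 24.3 CPM in ZincDef_TNF without overlap, and the log2 fold change was -1.56 with an unadjusted p of 0.0315 and an adjusted p of 0.683 in edgeR. That scaling moves the median of all tested genes to -0.67, so relative to it Pycard was lower by a smaller amount.

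Il18, the cytokine matured by inflammasome caspases, had 0, 11 and 1 counts in St 1 to St 3 and 1, 3 and 2 in Zn 1 to Zn 3. It was at or below the limit set by 3 counts in 5 of 6 libraries, and a difference between the diets was not detectable at this depth. Fitted without the filter on low counts, the log2 fold changes were -0.45 for Il18, 1.12 for Tlr4 and -1.18 for Tlr5, with adjusted p-values of 0.931, 0.781 and 0.754 in edgeR.

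**Figure D4:**
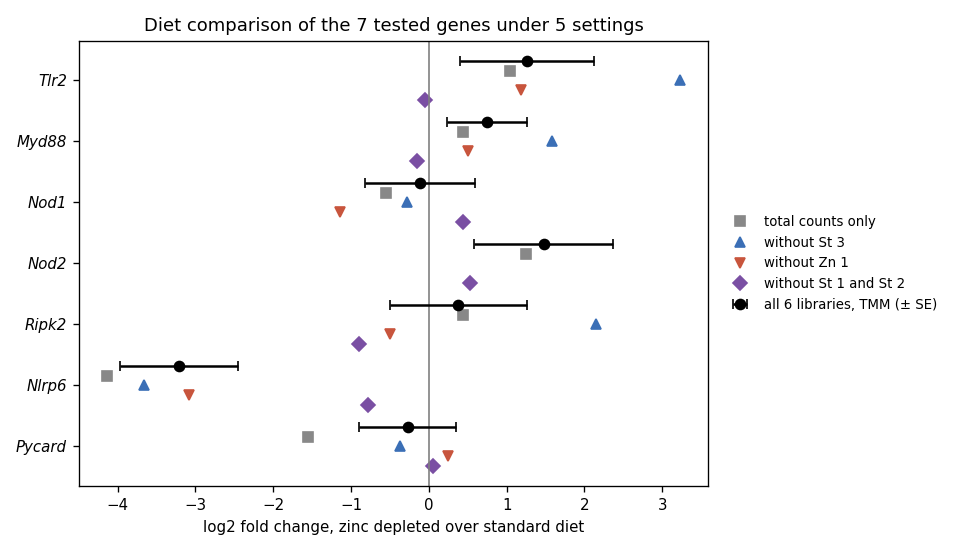
Log2 fold changes (zinc depleted over standard diet) of the 7 tested genes, with all 6 libraries and TMM scaling in black with the SE as a bar, and under 4 other settings as coloured symbols. Nlrp6 stays left of 0 under each setting and lies nearest to it without St 1 and St 2, where Tlr2, Myd88 and Ripk2 lie below 0, and Nod2 did not pass the filter without St 3 or without Zn 1.

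The other 68 genes of the same pathways showed which partners of these sensors were present. Of these, 36 passed the filter, 30 with a higher and 6 with a lower fitted level in ZincDef_TNF, with a median log2 fold change of 0.32 beside 0.00 over all tested genes. Of all 9749 tested genes, 4876 were higher and 4873 lower. None of the 68 had an adjusted p under 0.05 in edgeR or DESeq2. In edgeR, 3 had an unadjusted p under 0.05, all higher, beside 2.58% of all tested genes that were higher at that threshold. In the fit without St 1 and St 2, in which 41 of the 68 passed the filter, 22 of the 41 were higher. With total counts as the only scaling, 11 of the 36 were higher in place of 30, in a fit where the median of all genes was -0.67. The number above 0 thus changed with the scaling, and the place of these genes relative to all genes in that fit was not tested. No counts were found for 14 of the 68, among them Tlr8, Tlr11, Tlr12, Tlr13, Nlrp1a, Nlrp1b, Nlrp12, Nlrc3, Mefv and Il1a.

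By role, 3 of 12 other Toll-like receptor and co-receptor genes passed the filter, as did 13 of 14 adaptors and regulators, 5 of 7 genes of the NOD pathway and 5 of 16 other inflammasome sensors. All 6 other genes of the adaptor, caspase and effector list passed, as did 3 of 9 genes of the IL-1 family and 1 of 4 peptidoglycan recognition proteins. The sensors Nlrp3 and Aim2 had 4 and 40 counts over the 6 libraries, and the inflammasome cytokine Il1b had 17. In the adaptor, caspase and effector list, Ninj1, which ruptures the membrane of dying cells, had a mean of 24.8 TPM. Casp4, the sensor caspase of cytosolic lipopolysaccharide, had 19.0 TPM, Casp8 8.48 TPM and Casp1 6.31 TPM. Gsdmd and Nek7 of that list were lower, at 2.49 and 0.802 TPM. Casp1, Gsdmd, Nek7, Nlrp3, Aim2 and Il1b were named after their values were seen.

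Nlrc4 stood at 14.3, 16.3 and 31.9 normalised CPM in St 1 to St 3 and at 46.0, 42.4 and 55.1 in Zn 1 to Zn 3, with no overlap between the diets on this scale. Its log2 fold change was 1.20 (SE 0.41), with an unadjusted p of 0.0141 and an adjusted p of 0.681 in edgeR, and it shares 867 exon bases with Slc30a6 on the opposite strand. Ninj1 stood at 17.1, 31.9 and 57.0 against 57.4, 92.1 and 109 normalised CPM, where St 3 was only just below the lowest zinc depleted library, with a log2 fold change of 1.28 (SE 0.49) and an unadjusted p of 0.0231 in edgeR. The third gene was Tirap, the adaptor that bridges Tlr2 and Tlr4 to Myd88, named after its values were seen. It stood at 2.85, 3.04 and 8.61 against 20.6, 7.80 and 8.02 normalised CPM, with overlap between the diets, a log2 fold change of 1.35 (SE 0.56) and an unadjusted p of 0.0342 in edgeR. Its exons share 39 bases with Srpra, an abundant gene on the opposite strand with 7308 counts. In normalised CPM, all 3 were lowest in St 1 and next lowest in St 2, and without these libraries the log2 fold change was 0.58 for Nlrc4 and 0.59 for Ninj1. Scaled by total counts, Tirap was lowest in Zn 3, at 3.68 CPM. Of the 36 other pathway genes tested, 3 were higher in ZincDef_TNF without overlap in normalised CPM, beside 3.51% of all tested genes. These were Nlrc4, Ninj1 and Birc2 of the NOD pathway. Birc2 stood at 5.82 to 6.33 against 6.74 to 12.6, with an unadjusted p of 0.163 in edgeR. The separation of these 3 genes between the diets held on normalised CPM only. Scaled by total counts, Nlrc4 was at 24.4 to 28.6 CPM in St_TNF and 25.3 to 67.0 in ZincDef_TNF, and Ninj1 at 29.4 to 51.1 and 49.8 to 83.5, with log2 fold changes of 0.62 and 0.58.

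The lowest levels in St 1 and St 2 were also seen for Casp4 and for Birc3, an inhibitor of apoptosis protein of the NOD pathway and itself an NF-kB target. Birc3 is 1 of the 11 targets whose sum set St 1 and St 2 apart, so its low level there is not a separate observation. Casp4 stood at 3.56, 16.2 and 69.7 normalised CPM in St 1 to St 3 and at 53.9, 92.1 and 64.8 in Zn 1 to Zn 3, with a log2 fold change of 1.24 (SE 0.78) and an adjusted p of 0.694 in edgeR. Birc3 stood at 5.30, 13.3 and 66.5 against 80.6, 56.5 and 47.6 normalised CPM, with a log2 fold change of 1.12 (SE 0.73). St 3 lay within the range of the zinc depleted libraries for both genes, and without St 1 and St 2 the log2 fold changes were 0.0067 for Casp4 and -0.12 for Birc3. Without St 3 they were 2.89 for Casp4 and 2.78 for Birc3, with adjusted p-values of 0.104 and 0.0766 in edgeR. The sensor partner Naip2 was more even, at 17.6 to 18.3 normalised CPM in St_TNF and 14.2 to 28.6 in ZincDef_TNF, as was Pglyrp1, at 351 to 583 in St_TNF and 446 to 637 in ZincDef_TNF.

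Contributions of immune cells were looked for through their markers. Of 8 myeloid markers, 6 had counts and Cx3cr1 and Itgax were at 0. Cd68 had 4 to 16 counts and Csf1r 2 to 6 counts in each library, and Adgre1 had at most 8 counts. The summed level of the 8 markers was 22.1 to 108 normalised CPM in St_TNF and 25.2 to 127 in ZincDef_TNF, most of it from Lyz2, a near-identical copy of the Paneth gene Lyz1. Without Lyz2, the sum was 1.12 to 2.17 in St_TNF and 0.963 to 5.27 in ZincDef_TNF, below Tlr2 in each library but St 1, where the sum was 1.74 and Tlr2 was 1.03. A marker sum does not give the amount of Tlr2 RNA that such cells would bring, and the part of immune cells was not tested. Of 10 lymphoid markers, 8 had counts, Cd3e and Cd4 were at 0, and the sum was 0.671 to 3.58 in St_TNF and 0 to 5.27 in ZincDef_TNF. The highest counts were 33 for Ptprc in St 2 and 14 for Jchain in Zn 2.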

How the data were processed

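Paneth cells of 6 libraries, 3 per diet, were measured by single-end RNA-seq. The authors deposited raw counts per Ensembl gene, without normalization. The submitters' processing notes name FastQC, Trimmomatic 0.39, STAR 2.7.10a, DESeq2 and the build mm39. Which program counted the reads, and how it handled strand and multiple matches, is not given in the sources used here. Symbols, positions and canonical transcript lengths came from GENCODE M39 (GRCm39) by identifier (54749 of 55414 matched, the others holding at most 0.00479% of the counts of a library).

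Counts were tested with edgeR 4.0.16 in R 4.3.3 (quasi-likelihood F test, two-sided, TMM scaling, filterByExpr, no covariate), with p-values adjusted by Benjamini-Hochberg over all 9749 tested genes and a threshold of 0.05. The code was tested on simulated counts. Log2 CPM for correlations used a prior count of 2. DESeq2 1.42.0, limma-voom (limma 3.58.1), other scalings, other filters, a replicate block and the omission of each library were alternatives. The omission of St 1 and St 2 together and the list of NF-kB targets were added after the data were seen. The p-values set the difference between the diets against the spread between libraries.

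The 10 genes, the pathway lists and the markers were chosen with earlier results of these data known. Named genes were the 10, up to 3 tested genes per role list with the highest length-scaled level, pathway genes called by edgeR or DESeq2 or with an unadjusted p under 0.05 and no overlap of CPM, and the 5 genes most correlated with Nlrp6. Genes named outside this rule (Tirap, Casp1, Gsdmd, Nek7, Nlrp3, Aim2, Il1b, genes without counts, single markers and the other genes called by DESeq2) were chosen after their values were seen. Limits for a count of 0 are 3 counts, and they cover counting error only.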

Additional observations from a re-analysis of the deposited data

How the results depend on the processing

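The number of genes called was 0 in edgeR, with 645 genes at an unadjusted p under 0.05, and it was 6 with DESeq2, 76 without the filter on low counts and 28 without St_TNF replicate 3. Leaving out any other single library gave 0 calls, so the range over single omissions was 0 to 28, and limma-voom, RLE size factors, total counts, TMM without alpha-defensins, a minimum of 10 counts in each library and the omission of St 1 and St 2 together also gave 0. In the first 3 settings, 1 gene of the 10-gene list and 1 of the whole pathway list was called, Nlrp6 in each case, and in the others 0. The cause was not tested.

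With the replicate number as a block, 0 genes were called, 962 had an unadjusted p under 0.05, and Nlrp6 was at -2.87 (adjusted p 0.212 in edgeR). The deviations of equally numbered libraries correlated at 0.147, -0.058 and 0.248, so the numbers were not taken to pair the libraries, and St 2 correlated best with Zn 1 (0.250).

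The log2 fold changes of Nlrp6, Nod2, Nlrc4, Ninj1 and Casp4 kept their sign in every alternative that could be fitted. With total counts only, the sign turned for Il1rap (-0.47), Casp8 (-0.24), Naip2 (-0.25), Erbin (-0.31), Birc2 (-0.21), Sigirr (-0.56), Pglyrp1 (-0.40), Cd14 (-0.19), Irak1 (-0.50) and Ly96 (-0.050), in a fit where the median of all genes was -0.67. Irak1 was also at -0.043 with at least 10 counts in each library, -0.0086 with limma-voom and -0.0072 with the replicate block. Without St 1 and St 2, the sign turned for Casp8 (-0.54), Nod1 (0.43), Ly96 (-0.35), Ripk2 (-0.90), Il18bp (-0.060), Pglyrp1 (-0.065), Tlr2 (-0.053), Il1rap (-0.33), Il1rn (-0.53), Pycard (0.054), Cd14 (-0.27), Myd88 (-0.15) and Birc3 (-0.12). Over the omissions of single libraries, the ranges that crossed 0 were -1.14 to 0.29 for Nod1, -0.50 to 2.14 for Ripk2, -0.90 to 0.25 for Pycard, -0.22 to 0.31 for Il1rap, -0.031 to 0.92 for Casp8, -0.27 to 0.24 for Irak1, -0.17 to 0.56 for Erbin and -0.13 to 1.16 for Ly96. Depth limited Tlr4, Tlr5 and Il18, which did not pass the filter.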
